A study of Mus musculus with 12 samples.

Results

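The genes described here are 10 transcription factors that mark the midbrain and the habenula: Tal1, Gata2, Gata3, Sox14, Lhx9, Pou4f1, En1, En2, Otx2 and Pax7. They were taken by symbol from the 78334 Ensembl gene IDs of the deposited count table, and each symbol matched 1 ID. They were selected on their counts in these same libraries, since earlier results of these data had shown them high in 1 library, so their levels across libraries are given as a description, with no test. All 10 passed the filter on low counts, as did 25562 genes in all.

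The counts come from bulk RNA sequencing of tissue labelled hypothalamus from male C57BL/6 mice, in 12 libraries. The study asked what curcumin and aged garlic extract do to hypothalamic transcripts in a diabetes model. The 3 curcumin libraries came from diabetic mice given 50 mg/kg curcumin by mouth daily for 28 days, and the 2 garlic libraries from diabetic mice given 200 mg/kg aged garlic extract in the same way. The 4 diabetes libraries came from diabetic mice given vehicle, and the 3 control libraries from mice on standard diet given vehicle. All 9 diabetic libraries share the same model. Streptozotocin, a toxin of the insulin-making beta cells, was injected once at 70 mg/kg on postnatal day 2. A high-fat diet with 60% of its energy from fat followed for 8 weeks from 3 weeks of age. The labels give the start of treatment as week 7 of the diet in one place and as 11 weeks in another. They do not name the vehicle, and they do not say whether control pups received a mock injection.

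In the developing brain, regional transcription factors divide the neural tube into territories, and many of them stay on in the adult neurons of those territories. TAL1, GATA2 and GATA3 set the inhibitory fate of midbrain neurons, POU4F1 marks habenular neurons and excitatory neurons of the dorsal midbrain, and the engrailed proteins mark the midbrain and anterior hindbrain. The hypothalamus is specified by another set, among them NKX2-1, OTP and SIM1, and is known by its peptides, such as vasopressin and oxytocin.

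Library totals ran from 12950017 to 30271706 counts. The library labelled curcumin replicate 2 stood apart from the other 11 and went against its hypothalamus label; it is called curcumin replicate 2 below by that label. Its counts for Nkx2-1, the defining transcription factor of the ventral hypothalamus, came to 0.0497 CPM (counts relative to a library size scaled by the TMM method), against 28.6 to 56.8 CPM in the others. The libraries also differed in how many genes they detected. Thinned to the lowest total, the curcumin libraries held an expected 20917, 29126 and 22337 genes, the garlic libraries 33125 and 34719, the diabetes libraries 20133 to 22515, and the controls 25766 to 33157. The labels number the libraries without saying that each came from its own animal, so any spread between them may be technical.

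Promoter sequences from RefSeq on GRCm38.p6 were found for 9 of the 10 factors. The 4 given here belong to the 3 factors that stood highest in curcumin replicate 2 over the mean of the other libraries, and to Tal1, which had 0 counts in every diabetes library. Each is the stretch before the annotated start, written 5′ to 3′ on the strand of the gene. The En1 stretch, chr1:120602237-120602417 on the plus strand, was cut short where an annotated untranslated exon begins. The Pou4f1 stretch is chr14:104468000-104468249 and the Gata3 stretch chr2:9878601-9878850, both on the minus strand. The Tal1 stretch is chr4:115056176-115056425 on the plus strand, the first listed for that gene. The bases just after its start were not found in a GENCODE M21 transcript of Tal1. Those after the start of another Tal1 window, chr4:115057561-115057810, were found, and that window held no match to the motifs named below.
En1: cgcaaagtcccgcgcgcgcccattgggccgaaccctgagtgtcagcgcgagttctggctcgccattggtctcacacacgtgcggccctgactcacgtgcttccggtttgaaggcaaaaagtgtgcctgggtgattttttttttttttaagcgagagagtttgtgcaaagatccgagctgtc
Pou4f1: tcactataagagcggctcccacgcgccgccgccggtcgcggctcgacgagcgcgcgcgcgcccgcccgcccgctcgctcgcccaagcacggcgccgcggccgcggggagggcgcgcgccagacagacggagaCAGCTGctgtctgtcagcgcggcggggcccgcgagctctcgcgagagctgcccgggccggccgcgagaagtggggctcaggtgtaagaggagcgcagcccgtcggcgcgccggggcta
Gata3: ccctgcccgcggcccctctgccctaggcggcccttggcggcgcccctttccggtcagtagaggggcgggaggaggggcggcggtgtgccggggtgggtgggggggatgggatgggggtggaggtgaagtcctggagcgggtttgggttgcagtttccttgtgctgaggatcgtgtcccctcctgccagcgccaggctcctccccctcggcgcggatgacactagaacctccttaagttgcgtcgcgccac
Tal1: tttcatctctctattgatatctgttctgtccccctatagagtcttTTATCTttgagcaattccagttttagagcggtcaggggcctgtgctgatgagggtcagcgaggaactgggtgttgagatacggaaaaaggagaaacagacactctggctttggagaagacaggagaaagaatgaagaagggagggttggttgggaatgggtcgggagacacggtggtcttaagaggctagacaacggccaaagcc
Capitals mark matches to the motifs searched on both strands, which were AGATAA (the core that GATA factors bind), CAGATG and CAGCTG (E-boxes, the class TAL1 binds with its partners) and TAATTA (a homeodomain core). TTATCT in the Tal1 stretch is AGATAA read on the other strand, and CAGCTG in the Pou4f1 stretch reads the same on both. The En1 and Gata3 stretches held no match. Over all 14 windows of 250 bases found for the factors, AGATAA occurred in 3 windows, of Tal1 and Otx2, and in 9.99% of the 32851 windows of all genes. CAGATG occurred in 1 window, of Otx2, and in 14.4% of all windows, CAGCTG in 1 window, of Pou4f1, and in 13% of all, and TAATTA in 2 windows, both of Otx2, and in 4.84% of all. These counts are descriptions of letters in a window and do not show binding.

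Tal1 encodes a helix-loop-helix factor that also drives the formation of blood and endothelial cells. It stood at 1.33, 27.6 and 0.595 CPM in curcumin replicates 1, 2 and 3, at 1.77 and 1.63 CPM in the garlic libraries, at 0 CPM in all 4 diabetes libraries, and at 2.24, 1.11 and 1.41 CPM in the controls. Curcumin replicate 2 held 556 of the gene's 771 counts. Its level was 12.3 times that of the next library, control replicate 1 (95% counting interval 9.3 to 16.7). In bulk tissue, a change in the number of cells of a type and a change in RNA per cell cannot be told apart, and this holds for every gene below.

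Gata3, a zinc-finger partner of Tal1 in midbrain inhibitory neurons, was the most unequal of the inhibitory factors. It stood at 0, 21.4 and 0.793 CPM in the curcumin libraries, at 0.177 and 0.526 CPM in the garlic libraries, at 0 CPM in all 4 diabetes libraries, and at 0.507, 0.332 and 0.136 CPM in the controls. Curcumin replicate 2 held 89.4% of all its counts and lay 26.9 times above the next library, curcumin replicate 3 (interval 16.4 to 47.5). The next library had 16 counts, so the ratio rests on few counts on that side. Exons of 9230102O04Rik on the same strand and of Gm13256 on the opposite strand overlap Gata3, but had 14 and 0 counts in curcumin replicate 2, against 430 for Gata3.

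Gata2 and Sox14 stood less far apart. Gata2, which acts before Gata3 and Tal1 in midbrain inhibitory precursors, stood at 2.22, 14.9 and 2.97 CPM in the curcumin libraries, at 5.8 and 2.47 CPM in the garlic libraries, at 1.52, 4.79, 5.13 and 2.69 CPM in the diabetes libraries, and at 2.32, 3.1 and 1.99 CPM in the controls. It was found in all 12 libraries, and the level in curcumin replicate 2 was 2.58 times the next (interval 2.09 to 3.19). Sox14, an HMG-box factor of inhibitory neurons in the pretectum and thalamus, stood at 6.11, 17.2 and 3.17 CPM in the curcumin libraries, at 1.24 and 1.53 CPM in the garlic libraries, at 6.08, 3.49, 13.4 and 2.53 CPM in the diabetes libraries, and at 2.36, 1.22 and 2.67 CPM in the controls. Diabetes replicate 3 came close to curcumin replicate 2 for Sox14, at a ratio of 1.29 (interval 1.06 to 1.56). Of the 10 factors, Sox14 had the smallest ratio to the next library.

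Lhx9, a LIM-homeodomain factor of thalamic, pretectal and midbrain excitatory neurons, had the highest count of the 10 factors. It stood at 4.83, 84.7 and 2.08 CPM in the curcumin libraries, at 6.03 and 8.58 CPM in the garlic libraries, at 2.3, 0, 2.0 and 4.34 CPM in the diabetes libraries, and at 9.71, 10.2 and 8.11 CPM in the controls. The level in curcumin replicate 2 was 8.28 times the next, control replicate 2 (interval 7.11 to 9.69). Outside that library, every control lay above every diabetes and curcumin library.

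Pou4f1 encodes the POU-homeodomain factor also called BRN3A. It stood at 0, 18.9 and 0 CPM in the curcumin libraries, at 0.222 and 0.0526 CPM in the garlic libraries, at 0 CPM in all 4 diabetes libraries, and at 1.1, 0 and 0.816 CPM in the controls. It was undetected in 7 libraries, and 380 of its 430 counts came from curcumin replicate 2. The ratio to control replicate 1, the next library, was 17.2 (interval 11.6 to 26.7).

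The 4 regional patterning factors were also highest in curcumin replicate 2. En1 stood at 0, 26.7 and 0 CPM in the curcumin libraries, at 0.177 and 0 CPM in the garlic libraries, at 0.106, 0.563, 0 and 0 CPM in the diabetes libraries, and at 1.44, 0.221 and 0 CPM in the controls. With 90.7% of its counts in 1 library, En1 was the most concentrated of all 10 factors. En2, its paralog, stood at 1.09, 27.7 and 0 CPM in the curcumin libraries, at 1.2 and 0.79 CPM in the garlic libraries, at 2.86, 0, 1.04 and 0 CPM in the diabetes libraries, and at 1.1, 1.11 and 0.635 CPM in the controls. The ratios to the next library were 18.6 for En1 (interval 13.2 to 27.2) and 9.67 for En2 (interval 7.64 to 12.4).

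Otx2, a homeodomain factor of the forebrain and midbrain that the choroid plexus also uses, stood at 0, 22.1 and 0.595 CPM in the curcumin libraries, at 3.46 and 1.26 CPM in the garlic libraries, at 3.78, 0, 1.22 and 2.48 CPM in the diabetes libraries, and at 3.33, 3.87 and 1.68 CPM in the controls. Its antisense neighbour Otx2os1 had 21 counts in curcumin replicate 2, against 445 for Otx2. Pax7, a paired-box factor of the dorsal midbrain, stood at 2.98, 14.2 and 0.743 CPM in the curcumin libraries, at 0.709 and 0.421 CPM in the garlic libraries, at 0.918, 2.37, 0.435 and 0 CPM in the diabetes libraries, and at 0.549, 1.6 and 1.45 CPM in the controls. Curcumin replicate 2 exceeded the next library 5.71 times for Otx2 (interval 4.43 to 7.46) and 4.76 times for Pax7 (interval 3.61 to 6.36). For both genes the other groups overlapped.

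**Figure D1:**
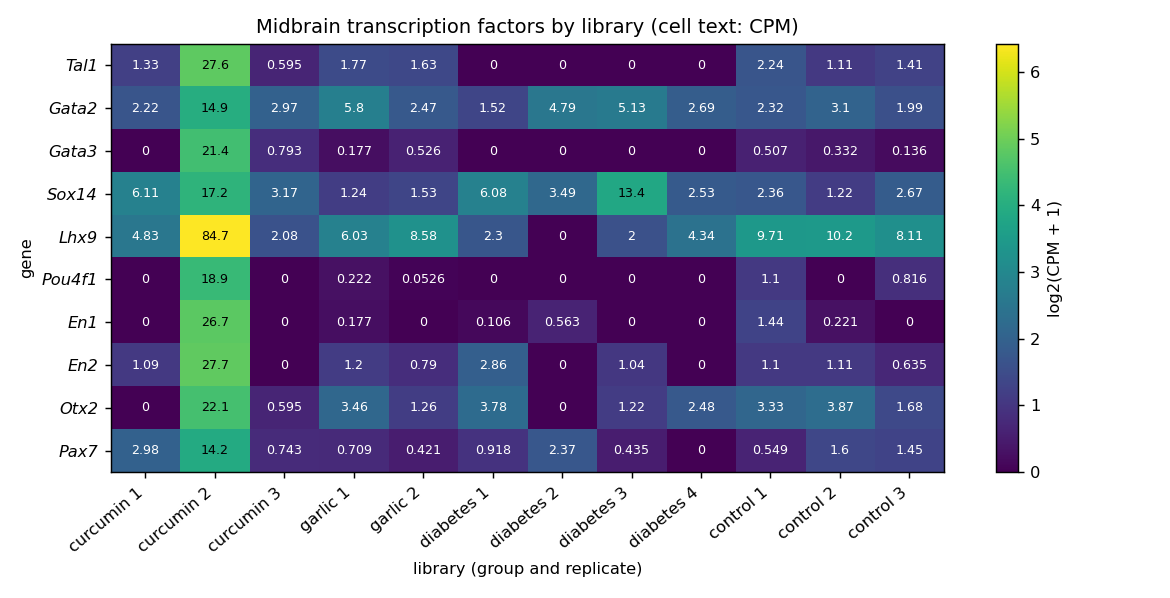
CPM of the 10 factors (rows) in the 12 libraries (columns, by group and replicate), with the CPM printed in each cell and the colour showing log2(CPM + 1). The curcumin 2 column is the brightest in every row, from 14.2 CPM for Pax7 to 84.7 CPM for Lhx9, and Tal1, Gata3 and Pou4f1 are at 0 in the 4 diabetes columns.

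All 10 factors thus had their highest level in curcumin replicate 2. Of all genes tested, 8.82% were highest in that library, and since the factors were chosen for this pattern nothing is read from the count. Summed over the 10 factors, curcumin replicate 2 had 275.0 CPM, and the other 11 libraries had 11.0 to 24.7 CPM with a median of 18.6. In counts, this was 5546 in curcumin replicate 2, against 199 to 584 in the others. The mean sum over the curcumin libraries was 102 CPM with that library and 14.8 CPM without it. Levels can be set between genes only per length. On CPM per kilobase of annotated exon, En1 had the highest level in curcumin replicate 2 at 10.2, followed by Lhx9 at 8.92, Sox14 at 8.34 and En2 at 7.82, and Pax7 had the lowest at 2.42.

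Ranked by the difference in log2 CPM between curcumin replicate 2 and the mean of the other 11 libraries, 5 of the 10 highest of 25562 genes were among these factors. En1 ranked 2 with a difference of 7.09, Pou4f1 ranked 3 at 6.76, Gata3 ranked 4 at 6.55, Tal1 ranked 8 at 5.66 and En2 ranked 10 at 5.49. Pou4f2, the paralog of Pou4f1 that retinal ganglion and dorsal midbrain neurons use, ranked 1 at 7.11. The remaining 4 of the top 10 were Tfap2b, Shox2, Mab21l1 and Cnpy1. The lower members of the set were Lhx9 at rank 14, Otx2 at 23, Pax7 at 27, Sox14 at 239 and Gata2 at 302. Since the factors were chosen for high levels in this library, their ranks are a description and nothing is read from them.

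**Figure D2:**
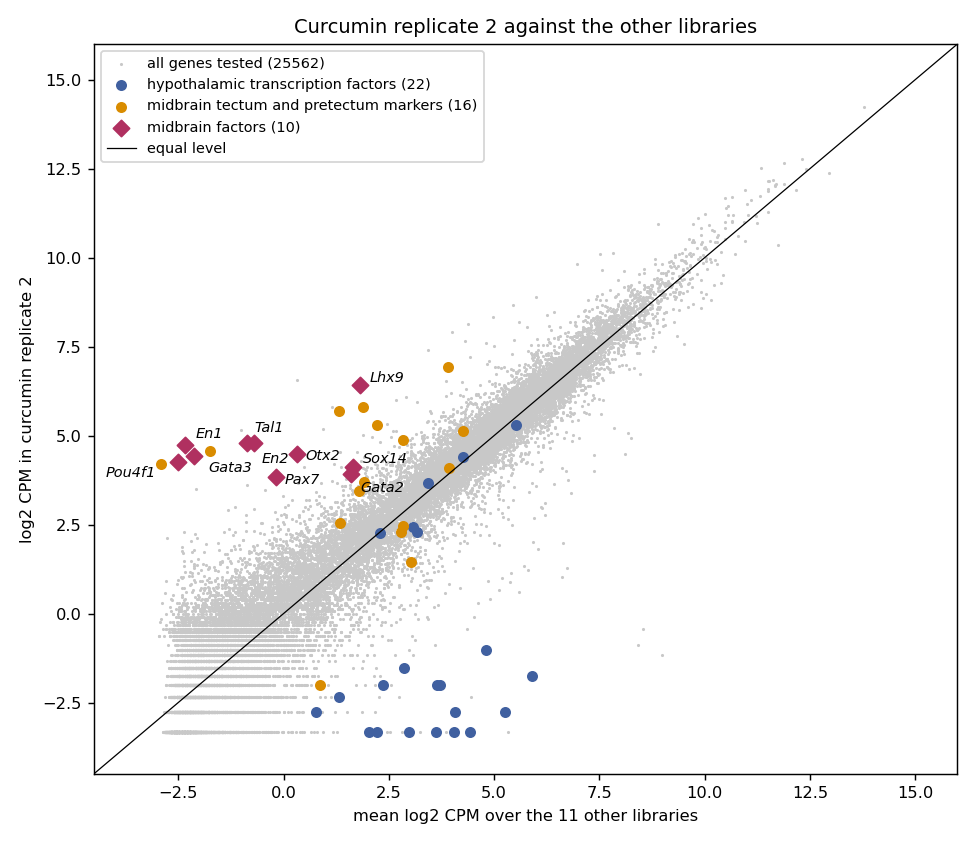
Log2 CPM in curcumin replicate 2 (vertical axis) against the mean log2 CPM of the other 11 libraries (horizontal axis) for the 25562 genes tested, with the factors, the hypothalamic transcription factors and the midbrain tectum and pretectum markers coloured and the line of equal level drawn. The 10 factors lie above the line, by 7.09 for En1 down to 2.31 for Gata2, while most hypothalamic transcription factors lie far below it.

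Genes outside the 10 factors gave a view of which region that library holds. Their lists were drawn up with earlier results of these data known, so they describe the library and are no separate check of its region. Of 22 hypothalamic transcription factors, 14 had their lowest level in curcumin replicate 2, where 3.94% of all genes tested were lowest, and none had its highest there. The median deviation of the list from the mean of each gene was -5.01 on the log2 CPM scale, against 0.11 for all genes, and its summed level was 89.0 CPM, against 308 to 445 CPM in the other libraries. In curcumin replicate 2, 13 of the 22 had at most 3 counts, and 6 had none (Nkx2-4, Six6, Hmx2, Hmx3, Fezf1 and Bsx). Otp, which specifies vasopressin and oxytocin neurons, stood at 0.199 CPM there, against 41.0 to 95.0 CPM elsewhere. Six3, which the anterior forebrain uses broadly, stood at 39.0 CPM, within the 36.4 to 55.0 CPM of the others.

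The hypothalamic peptides followed in part. Of 19 tested, 10 were lowest in curcumin replicate 2 and none was highest, with a median deviation of -2.45. Of the 20 listed, 10 lay within the range of the other 11 libraries. The list summed to 423 CPM in curcumin replicate 2, 717 CPM in curcumin replicate 1 and 1170 to 5380 CPM elsewhere. Its median deviation in curcumin replicate 1 was -1.08. Avp, which encodes vasopressin, stood at 0.348 CPM in curcumin replicate 2, against 48.8 to 1850 CPM elsewhere. Oxt, which encodes oxytocin, stood at 0.646 CPM, against 59.7 to 939 CPM, and Pmch, which encodes melanin-concentrating hormone, at 0.447 CPM, against 159 to 670 CPM. Of the 10 genes that lay furthest below the mean of the other libraries, 8 belonged to these hypothalamic lists.

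Markers of the midbrain tectum and pretectum, the roof of the midbrain and the zone in front of it, ran the other way. Of 16 tested, 11 were highest in curcumin replicate 2, and the list's median deviation was 1.57 (log2 CPM). Its summed level was 452 CPM, against 86.7 to 177 CPM in the other libraries. Meis2, a homeodomain factor of the dorsal midbrain, stood at 122 CPM, against 2.84 to 71.2 CPM elsewhere. Ebf3 stood at 35.0 CPM, against 11.2 to 26.2 CPM, and Lhx5 at 16.8 CPM, within the 7.57 to 22.2 CPM of the others. Barhl1 stood at 51.7 CPM, against 0.347 to 9.26 CPM, and Irx2 at 55.8 CPM, against 2.09 to 6.54 CPM, both picked after their values were seen.

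Markers of the habenula, a paired nucleus above the thalamus, were not high with Pou4f1. Of 15 tested, 2 were highest and 3 lowest in curcumin replicate 2, with a median deviation of -0.42 (log2 CPM). Calb1 stood at 36.6 CPM there, against 175 to 314 CPM, and Pcdh10 at 96.5 CPM, within the 89.0 to 218 CPM of the other libraries. Necab2 stood at 83.0 CPM, within the range of 65.6 to 121 CPM. Of the 15, 10 lay within the range of the other libraries. The habenular name of the set is thus not borne out by these markers. The genes are called midbrain factors here as a label only, since the lists are no separate check of region.

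Midbrain dopamine and serotonin markers were mostly low in the same library, with 7 of 12 lowest and 3 highest and a median deviation of -1.99. Ddc stood at 18.4 CPM there, against 40.9 to 94.2 CPM, and Slc18a2 at 5.46 CPM, against 29.7 to 66.2 CPM. Th, which makes the dopamine precursor and was picked after its values were seen, stood at 6.21 CPM, against 25.0 to 55.3 CPM. The list's summed level of 224 CPM lay within the 174 to 368 CPM of the others, but 188 CPM of it came from Aldh1a1, whose level was above that of every other library. Among thalamus markers, 6 of 18 were highest in curcumin replicate 2, with a median deviation of 0.39, and 8 of 18 were highest in control replicate 1, with 0.95. Of all genes tested, 8.82% were highest in curcumin replicate 2 and 1.55% in control replicate 1. The summed level of the thalamus markers was 2640 CPM in curcumin replicate 2, against 913 to 1840 CPM elsewhere. Cplx1, a synaptic gene, stood at 1120 CPM there, against 154 to 330 CPM, and Slc17a6, which loads glutamate into vesicles, at 353 CPM, against 119 to 254 CPM. Calb2 stood at 195 CPM, within the 185 to 579 CPM of the others. Tcf7l2, a transcription factor of the thalamus, pretectum and habenula that was picked after its values were seen, stood at 325 CPM, against 15.8 to 90.3 CPM. The partners of TAL1 and GATA factors showed a median deviation of 0.16, near the 0.11 of all genes, and 3 of 14 were highest. Of the paralogs of the 10 factors, 4 of 7 tested were highest, with a median of 1.07. The list of hindbrain, cerebellum and spinal cord markers, which includes Hox genes, had a median of -0.57 over the 8 tested. Of the 19 listed, 12 had 0 counts in curcumin replicate 2, but 0 of these were above 3 counts in all 11 other libraries. Within the range of the others lay 16 of the 19.

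Because TAL1, GATA2 and GATA3 also act in blood and vessel cells, those markers were set beside them. Of 15 endothelial markers, 11 were highest in curcumin replicate 2, with a median deviation of 1.46 and a summed level of 629 CPM, against 144 to 343 CPM elsewhere. Cldn5, a tight-junction gene of brain vessels, stood at 148 CPM, against 11.4 to 56.1 CPM. Ly6c1 stood at 72.6 CPM, against 21.7 to 43.7 CPM, and Egfl7 at 52.2 CPM, within the 21.3 to 68.6 CPM of the others. Blood cell markers had a median deviation of 1.03 there and of 2.72 in diabetes replicate 4. The part of vessel and blood cells in the Tal1, Gata2 and Gata3 levels was not tested.

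**Figure D3:**
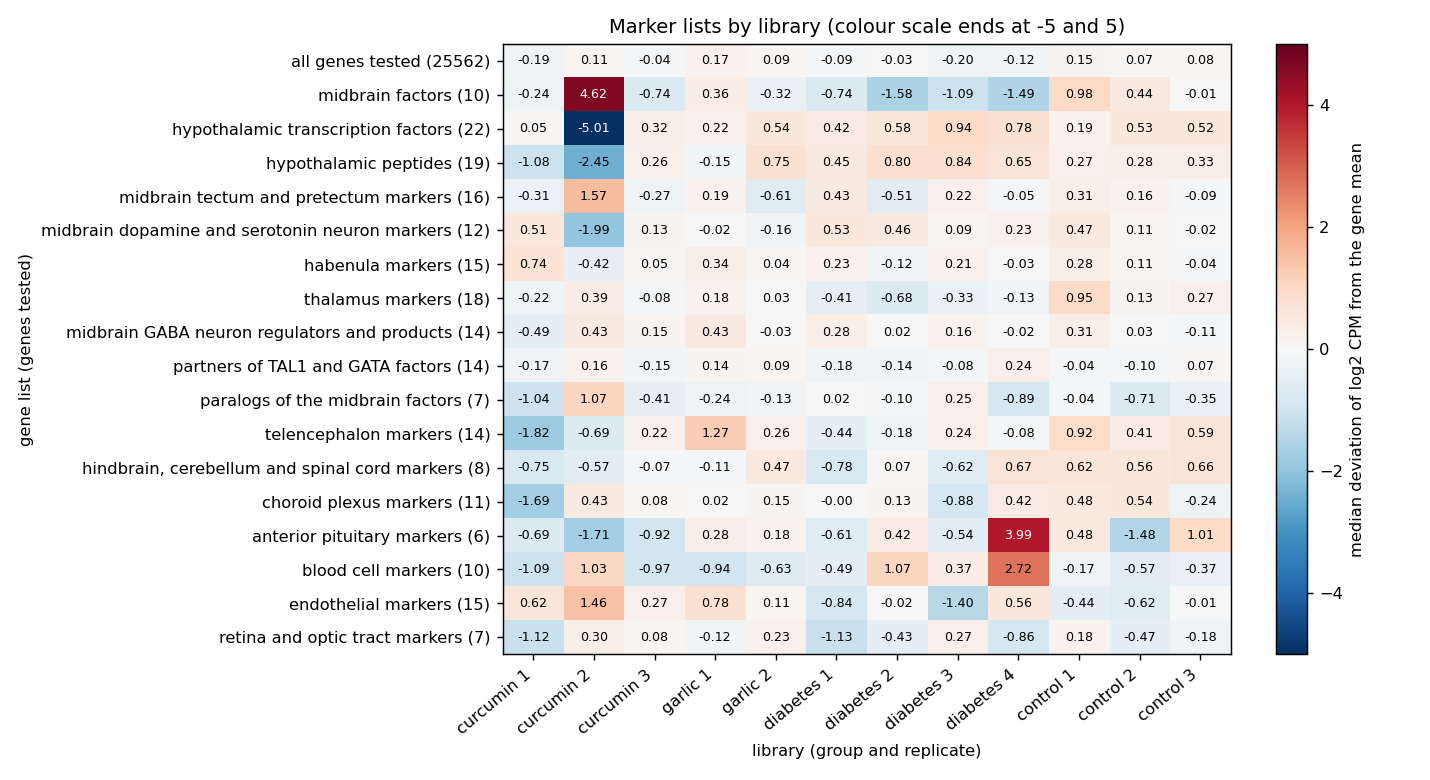
Median deviation of log2 CPM from each gene's mean over the 12 libraries (colour and cell text) for each marker list (rows, with the number of genes tested) in each library (columns). Curcumin 2 shows 4.62 for the midbrain factors and -5.01 for the hypothalamic transcription factors, while in the other 11 libraries the midbrain factors lie between -1.58 and 0.98.

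The inhibitory neuron list was mixed in curcumin replicate 2. Of 14 genes tested, 4 were highest and 3 were lowest. Gad1, which makes GABA, stood at 561 CPM, against 202 to 421 CPM, and Slc32a1, which loads it into vesicles, at 201 CPM, within the 120 to 241 CPM of the others. Gad2 stood at 213 CPM, also within the 161 to 487 CPM of the others. The low genes included Dlx2 and Dlx5, forebrain regulators of inhibitory neurons, at 0 CPM, against 2.92 to 19.5 CPM and 4.9 to 10.9 CPM, named after their values were seen.

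Without curcumin replicate 2 the 10 factors reached at most 13.4 CPM, for Sox14 in diabetes replicate 3, and 10.2 CPM, for Lhx9 in control replicate 2. The groups could be set side by side on mostly small counts. Curcumin replicates 1 and 3 had 4 and 3 of the 10 factors at 0, the garlic libraries 0 and 1, the diabetes libraries 3, 6, 4 and 6, and the controls 0, 1 and 1. The 6 libraries with the fewest genes detected, 20133 to 22515 at the lowest depth, were the 4 diabetes and these 2 curcumin libraries, and they were also those with 3 or more factors at 0. The part of gene detection in these zeros was not tested.

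**Figure D4:**
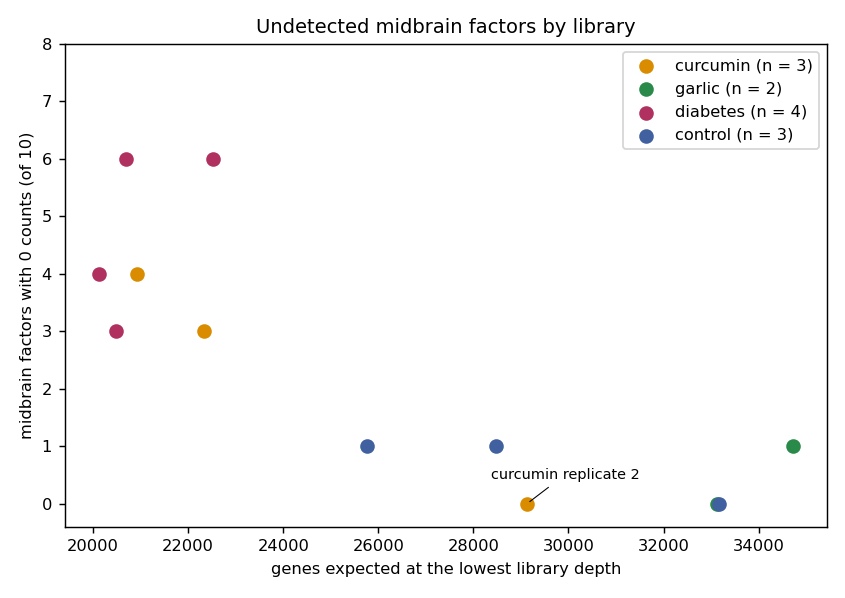
Number of the 10 factors with 0 counts (vertical axis) against the genes a library would hold if thinned to the smallest total (horizontal axis), 1 point per library, coloured by group. The 4 diabetes libraries and 2 of the curcumin libraries sit at the left with 3 to 6 factors at 0, and the other 6 libraries sit to the right with 0 or 1.

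In diabetes against control, 3 factors were lower with no overlap between the libraries of the groups (Tal1, Gata3 and Lhx9) and none was higher. Of all genes tested, 8.94% were lower and 5.78% higher in that way. Tal1 had 0 counts over the 4 diabetes libraries, against 104 over the 3 controls. With the floor at 3 counts pooled over the diabetes group, or 0.039 CPM, the pooled control level of Tal1 was 41.8 times the floor. Such ratios, here and below, treat a group as a single library. They allow for counting error in the diabetes libraries only. The counting error of the other group and the spread between libraries are left out. A single diabetes library at 0 counts allows up to 0.106 to 0.261 CPM. Gata3 had 0 counts, against 21 in controls, where its pooled level was 8.43 times the floor. Pou4f1 had 0 counts, against 44, but 1 control was also at 0, so the groups overlapped.

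Counts of 0 in all 4 diabetes libraries were found for 5.1% of the genes tested, and 0.333% had that pattern and at least 1 count in each of the other 8 libraries, Tal1 among them. In curcumin replicates 1 and 3, Tal1 had 28 and 12 counts, Gata3 0 and 16, and Pou4f1 0 in both. The gene detection of those libraries was close to that of the diabetes libraries, and its part in the diabetes zeros was not tested. Lhx9 averaged 2.16 ± 1.78 CPM in diabetes libraries (SD, n = 4) and 9.35 ± 1.1 CPM in controls (SD, n = 3). Sox14 averaged 6.38 ± 4.92 CPM in diabetes libraries and 2.08 ± 0.768 CPM in controls, with overlap. Gata2, En1, En2, Otx2 and Pax7 also overlapped between these groups. The thalamus list, whose region is only among those named above for Lhx9, had a median log2 fold change of -0.87 in diabetes against control. The value for all genes was -0.07. The list's median deviation was 0.95, 0.13 and 0.27 in control replicates 1, 2 and 3. In diabetes replicates 1 to 4 it was -0.41, -0.68, -0.33 and -0.13. A link between the list and the Lhx9 levels was not tested.

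In the curcumin group, Tal1 was the 1 factor that lay above all diabetes libraries, both with curcumin replicate 2, where 5.43% of genes did so, and without it, where 13.1% did. None lay below all diabetes libraries, beside 4.19% of genes with curcumin replicate 2 and 12.7% without it. Pooled over curcumin replicates 1 and 3, Tal1 was 24.8 times the pooled diabetes floor, and with curcumin replicate 2 it was 249 times the floor. Against controls, Sox14 was the 1 factor that lay higher in all 3 curcumin libraries, beside 2.82% of genes, and none lay lower, beside 5.84%. Without curcumin replicate 2, Sox14 still lay higher, beside 10.1% of genes, and Lhx9 and Otx2 lay below all controls, beside 20% of genes. Its mean was 8.84 ± 7.42 CPM in curcumin libraries and 2.08 ± 0.768 CPM in controls (SD, n = 3 each), and 4.64 CPM in curcumin replicates 1 and 3 alone. Pou4f1 and En1 were at 0 in curcumin replicates 1 and 3, as were 11.6% of genes tested.

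In the garlic group, 4 factors lay above all diabetes libraries (Tal1, Gata3, Lhx9 and Pou4f1), beside 13.2% of all genes, and Sox14 lay below them, beside 7.52%. Pooled over the garlic libraries, Tal1 was 43.8 times the pooled diabetes floor, Gata3 8.63 times and Pou4f1 3.7 times. These ratios rest on 71, 14 and 6 counts, whose counting error they leave out. Lhx9 averaged 7.3 ± 1.81 CPM in garlic libraries (SD, n = 2) and 2.16 ± 1.78 CPM in diabetes libraries (SD, n = 4). Sox14 averaged 1.38 ± 0.202 CPM in garlic libraries and 6.38 ± 4.92 CPM in diabetes libraries. No factor separated garlic libraries from controls, a pair of groups in which 6.65% of genes were higher and 6.11% lower without overlap. The comparisons with diabetes share the same 4 diabetes libraries, and the garlic group has 2 libraries.

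**Figure D5:**
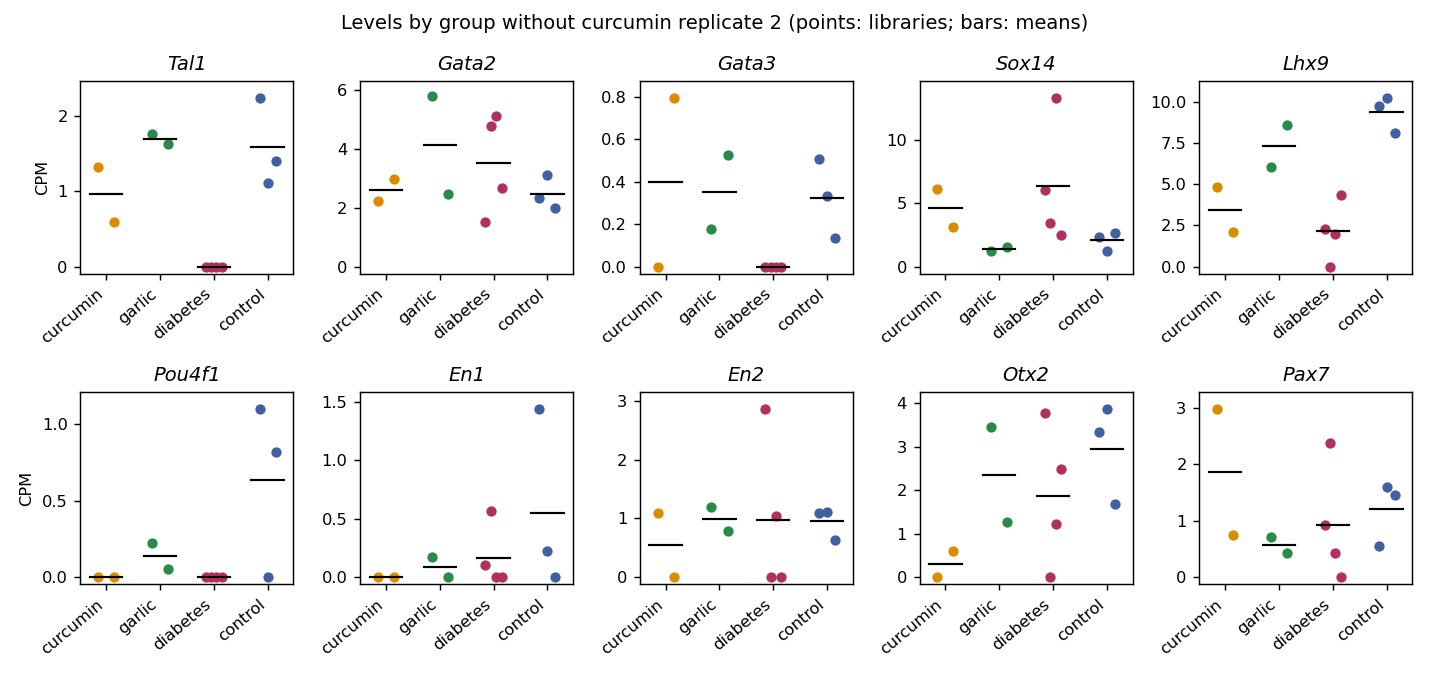
CPM of each factor by group without curcumin replicate 2, with 1 point per library and a bar at the group mean (curcumin n = 2, garlic n = 2, diabetes n = 4, control n = 3, each panel with its own scale). The diabetes points for Tal1, Gata3 and Pou4f1 all lie at 0, and those for Lhx9, at 0 to 4.34 CPM, lie below the controls at 8.11 CPM or more.

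In the fit of all 12 libraries with edgeR's quasi-likelihood test, an adjusted p under 0.05 was reached by 0.09% of genes in curcumin against diabetes (23 genes) and by 0.0156% in diabetes against control (4 genes). No gene reached it in garlic against diabetes, where DESeq2 called 432 and an unadjusted p under 0.05 was found for 2796 genes, in curcumin against control (597 at an unadjusted p under 0.05, 5 by DESeq2) or in garlic against control (28 at an unadjusted p under 0.05, 0 by DESeq2). Of the factors, Tal1 was among the 23 and none was among the 4. The factors were selected on values of these libraries, so nothing is read from these counts, and they are no test of the factors. Which factors fell among the calls also changed with the libraries fitted. In curcumin against diabetes, Tal1 was not called with only the 2 groups compared, with the replicate number as a block, or when control replicate 1, 2 or 3, diabetes replicate 1, 3 or 4, or curcumin replicate 1 was left out. It was called there without curcumin replicate 2, along with 1975 genes in all, and Gata3, Lhx9 and Pou4f1 joined it without garlic replicate 1 or garlic replicate 2. In diabetes against control, Tal1 was called lower with no filter and without curcumin replicate 1, garlic replicate 1 or garlic replicate 2. In garlic against diabetes, it was called higher with no filter and without garlic replicate 2.

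Of the 204 listed marker genes that were tested, 1 was called in any of the 5 comparisons. Foxd2, a forkhead gene of the developing diencephalon, was lower in curcumin than in diabetes libraries (log2 fold change -7.78, edgeR adjusted p = 0.0452). Its curcumin libraries had 0, 0.0497 and 0 CPM, against 4.8, 3.27, 3.92 and 7.8 CPM in diabetes. All 3 curcumin libraries lay below all 4 diabetes libraries. The call was lost with only the 2 groups compared (adjusted p = 0.16) and without control replicate 1, 2 or 3, diabetes replicate 1, 3 or 4, or curcumin replicate 1 or 3, and over all alternatives the adjusted p ran from 4.98e-06 to 0.16.

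How alike the 10 factors were depended on curcumin replicate 2. Over the 12 libraries, Pearson's r between log2 CPM of 2 factors was above 0 for all 45 pairs, with a median of 0.572. Over the other 11 libraries it was above 0 for 26 of the 45 pairs, with a median of 0.091. These are descriptions over shared libraries. The genes outside the lists whose log2 CPM was most like the mean of the factors over 12 libraries were Cdk16 (r = 0.971, and 0.84 without curcumin replicate 2), Vamp1 (0.966 and 0.841), Panx2 (0.964 and 0.799), Stac2 (0.957 and 0.748), Zfp385a (0.953 and 0.771), Osbpl1a (0.937 and 0.882), Pnkd (0.937 and 0.724) and Mgat5b (0.933 and 0.934). Vamp1, a synaptic vesicle protein gene, stood at 1100 CPM in curcumin replicate 2, against 152 to 229 CPM in the other libraries.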

How the data were processed

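The authors deposited 1 table of raw read counts per gene for the 12 libraries. Stranded poly-A libraries of Trizol-extracted RNA were sequenced as paired reads of 150 bases, per the labels' protocols. The tools named in the submitters' processing notes are FastQC and featureCounts, on the GRCm39 genome. Aligner, annotation and strand setting were not given in the sources used here, so overlapping and antisense genes are uncertain. Symbols were found for 51486 of 78334 IDs, and exon lengths came from GENCODE M21 (GRCm38).

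Genes were filtered with filterByExpr by group, scaled by TMM and fitted over all 12 libraries with edgeR 4.0.16 (quasi-likelihood test, R 4.3.3). Benjamini-Hochberg adjusted p-values under 0.05 over 25562 genes counted as calls. Log2 CPM used a prior count of 2. Intervals are exact and cover counting error only. Alternatives were RLE scaling, no filter, DESeq2 1.42.0, a replicate block, only the 2 groups compared, and each library left out. The members and the 16 marker lists were chosen with earlier results of these data known. Named genes were the 10 factors, list genes that were called, the 3 of highest mean level per list (given for the hypothalamic, tectum, habenula, dopamine, thalamus, inhibitory and endothelial lists) and the 8 most like the mean of the factors; the genes ranked by difference, and those marked as such, were picked after their values were seen. The edgeR fit and the rank by difference were tested on simulated data.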

Additional observations from a re-analysis of the deposited data

How the results depend on the processing

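All 10 factors stayed highest in curcumin replicate 2, and their summed level there was 257 to 275 CPM, under RLE scaling, plain totals and, for the count, a prior count of 0.5. The number of hypothalamic transcription factors lowest there was 14 or 15 under those settings and with no filter, and tectum and pretectum markers highest there numbered 10 to 14. The counts of called genes depended on the settings. In diabetes against control, 4 genes became 468 with no filter, 528 with DESeq2, 342 with only the 2 groups compared, 1 with the replicate block, and 0 to 194 with a library left out. These were 0 or 1 without any 1 control or diabetes library, 87, 102 and 0 without curcumin replicates 1, 2 and 3, and 194 and 163 without garlic replicates 1 and 2, where the filter kept 31107 and 30759 genes. In curcumin against diabetes, 23 became 123 with RLE scaling, 1128 with no filter, 1059 with DESeq2, 47 with the replicate block, 0 with only the 2 groups compared, and 1 to 1975 with a library left out. These were 1, 1975 and 9 without curcumin replicates 1, 2 and 3, 2, 60, 2 and 3 without diabetes replicates 1 to 4, 2 without any 1 control, and 538 and 493 without garlic replicates 1 and 2. In garlic against diabetes, 0 became 356 with no filter, 432 with DESeq2, 1 with the replicate block, and 0 to 71 with a library left out, 71 without curcumin replicate 2, 52 without garlic replicate 2, 37 without curcumin replicate 1, 2 without garlic replicate 1 or control replicate 3 and 1 without diabetes replicate 4. In curcumin against control, 0 became 43 with no filter, 5 with DESeq2, and 0 to 49 with a library left out, 49 without curcumin replicate 2. In garlic against control, 0 became 3 with no filter. The cause of these shifts was not tested, and 0 results reversed. The mean sum of the factors over the curcumin libraries was 102 CPM, and 14.8 CPM without curcumin replicate 2. Leaving out libraries of groups outside a comparison was added after the data were seen.

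With no filter, 4 factors were called lower in diabetes against control (Tal1, Gata3, Lhx9 and Pou4f1), and 6 higher in curcumin against diabetes (those and En1 and En2). Same-numbered libraries of the groups compared deviated together with r of -0.179 to 0.252. With so few libraries per group, these values cannot show whether same-numbered libraries have anything in common beyond the number. Outside curcumin replicate 2 most factors had few counts, and a library at 0 counts allows up to 0.106 to 0.261 CPM (3 counts), so absence cannot be read from these zeros.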

Other observations

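Other libraries also stood out for single marker lists that do not include the midbrain factors. Garlic replicate 1 had 7 of 14 telencephalon markers at their highest, beside 5.0% of all genes tested, with a median deviation of 1.27 on the log2 CPM scale. Anterior pituitary markers had a median deviation of 3.99 in diabetes replicate 4, and its blood cell markers 2.72. Curcumin replicate 1 had Slc6a3, the dopamine transporter gene, at 71.6 CPM, against 0.248 to 14.5 CPM in the others, chosen after its values were seen. The midbrain factors summed to 20.8 CPM in garlic replicate 1, 12.0 CPM in diabetes replicate 4 and 18.6 CPM in curcumin replicate 1, all within the range of the libraries other than curcumin replicate 2. What these levels reflect was not tested.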
